A study of Homo sapiens with 24 samples.

Results

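GPRC5A knockout (KO) and wild-type (WT) HT-29 cells were compared after 8 h with both tumour necrosis factor alpha (TNFα, 10 ng/mL) and 7-fluorotryptamine (7FTA, 50 µM). HT-29 is an established human colon adenocarcinoma line. The comparison took 6 of the 24 polyA RNA-seq libraries, the 3 labelled KO and the 3 labelled WT with both agents. The other 18 libraries held the same 2 genotypes, 3 libraries each, with 0.1% DMSO, with 7FTA alone or with TNFα alone, for 8 h. They gave the differences that are set beside the difference with both agents. They also entered the gene filter, the scaling and the shared estimate of spread behind each p-value. A fit of only the 6 libraries found 6566 genes that differed, against 7302 with all 24. The labels name the genotype of each library but no clone, guide or edited position, and they give DMSO for the DMSO groups only. Nothing states that replicates came from separate cultures or that more than 1 knockout line was grown, so each p-value speaks only of the spread among the libraries, which may be technical.

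GPRC5A is an orphan receptor of the G protein-coupled class C family, known as a gene that retinoic acid induces and abundant in many epithelia. TNFα binds TNF receptors on epithelial cells and activates NF-κB, which switches on chemokines, survival genes and its own inhibitors. Through STAT and IRF factors, interferon signals switch on a separate set of antiviral and antigen presentation genes, many of which carry a short GAAA-repeat element near their start. 7FTA is tryptamine with a fluorine on its indole ring, and indoles are a known class of ligands of the aryl hydrocarbon receptor.

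Among the gene lists, the median over all tested members stood furthest from 0 for interferon-stimulated genes: 46 of 48 were higher in KO. The genes shown here come with a stretch of their RefSeq promoter (GRCh38.p14, read 5′ to 3′ on the gene's own strand) to show where the interferon element lies. Capitals mark the motif GAAA, any 2 bases, GAAA, or its reverse complement, with both strands searched and overlapping matches joined. The first 4 are the list members with the smallest p whose promoter entry held a match outside annotated exons, and each stretch was trimmed to leave out exons. DDX60L was chosen after its values were seen, as a gene whose difference was smaller with 7FTA added.
IFIH1 (chr2:162318704-162318863, minus strand): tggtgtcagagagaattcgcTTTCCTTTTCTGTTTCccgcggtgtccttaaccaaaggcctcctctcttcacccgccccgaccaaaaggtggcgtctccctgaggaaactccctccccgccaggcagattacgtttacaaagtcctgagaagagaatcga
IFI44 (chr1:78649751-78649830, plus strand): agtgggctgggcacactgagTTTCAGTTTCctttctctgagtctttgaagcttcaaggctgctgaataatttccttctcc
IFIT3 (chr10:89327821-89327893, plus strand): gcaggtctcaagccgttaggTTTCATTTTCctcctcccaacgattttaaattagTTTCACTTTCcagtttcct
ISG15 (chr1:1013364-1013422, plus strand): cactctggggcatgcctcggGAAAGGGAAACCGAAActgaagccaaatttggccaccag
DDX60L (chr4:168480515-168480592, minus strand): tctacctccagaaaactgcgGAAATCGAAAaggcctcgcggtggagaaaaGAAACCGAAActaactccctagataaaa
The matches began 60 bases before the start of IFI44, 107 and 113 before ISG15, 122 and 156 before IFIT3, 153 and 159 before IFIH1, and 50 and 80 before DDX60L. In the 250 bases before each start, 26 of the 37 tested interferon-stimulated genes with a promoter entry held a match (70.27%), against 3.258% of all tested genes with an entry. Counted by promoter, the shares were 30 of 50 (60.0%) and, over all 35116 promoters, 3.021%. A match describes these letters and does not show that a factor bound there.

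The 3 WT libraries held 17132158 to 21958864 counts and the 3 KO libraries 19806523 to 23795935. Mitochondrial genes took 0.569% to 0.845% of the counts. Over the 6 libraries the epithelial markers EPCAM and KRT8 had 78164 and 1140209 counts, while the intestinal factors CDX1 and CDX2 had only 61 and 178 and the cadherin CDH17 181. CD3E, MS4A1, CSF1R, NKG7, CDH5, TIE1, COL1A2 and COL3A1, defining markers of immune, endothelial and stromal cells, were all at 0, and PTPRC had 3 counts. Others on the same lists were not at 0: ITGAM had 1121 counts, CD14 353, PECAM1 128, LUM 94, COL1A1 79, ACTA2 68, CD4 42, TEK 39 and CD79A 30. Of these, TEK on chromosome 9 was called higher in KO at 5 to 16 counts a library against 2 or 3 and ACTA2, whose exons overlap FAS, lower (-1.87), both on few counts, and their part in other results was not tested. LYZ, which intestinal epithelium also makes, held nearly all of the summed level of 15 immune markers. That sum was 1540 to 1559 CPM (counts scaled to the size of each library) in WT and 1545 to 1650 in KO. As in every summed level below, the scaling here was to library totals alone. Whole chromosome stretches differed between the genotypes: the median log2 difference was -0.48 over 248 tested genes of chromosome 13, -0.47 over 68 genes of the end of 6q, -0.26 on chromosome 8, -0.16 on chromosome 9 and -0.13 on chromosome 19, against 0.03 over the 11773 genes elsewhere. The same stretches were low in all 4 treatments. Most genes named on them are marked as such. Among those not marked are SPINK4 and TOMM5 on chromosome 9, GEM on chromosome 8 and IL4I1 on chromosome 19. The part of DNA copy number in any result was not tested.

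GPRC5A itself (chromosome 12, 12890782 to 12917937, plus strand, GRCh38) was measured at 249, 231 and 248 CPM in the WT libraries and at 75.1, 77.9 and 80.6 CPM in the KO libraries. All KO libraries lay below all WT libraries. The mean was 243 ± 10.2 CPM in WT and 77.9 ± 2.76 in KO (SD, n = 3 each), 3.12-fold lower in KO (log2 fold change -1.64 ± 0.04 SE, edgeR adjusted p = 6.2e-36). The count covers the whole gene, so RNA from an edited gene is counted where it is still made. With TNFα alone, 7FTA alone and DMSO the differences were -1.66, -1.66 and -1.57. In these bulk libraries fewer cells with a transcript and less of it per cell cannot be told apart, here or in any result that follows.

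Of 14059 genes tested, 7302 differed between KO and WT with both agents (51.9%, edgeR quasi-likelihood test with adjusted p under 0.05, called below), 3634 higher in KO (25.8%) and 3668 lower (26.1%). Called genes with a difference of at least 2-fold numbered 1072 (7.63%), 677 higher and 395 lower. The 3 KO and 3 WT libraries did not overlap for 7761 genes (55.2%). With about every other gene called, the size and direction of a difference carry more than the call. The split depended on scaling: with library totals in place of edgeR's TMM factors, 5138 genes were higher and 2398 lower, and the median over all genes was 0.10 in place of 0.01. The direction of differences smaller than that shift depends on the scaling.

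Among abundant enough genes with no overlap between the genotypes, the largest increase in KO was that of PLCB4, a phospholipase C that acts downstream of G proteins. It stood at 0.308, 0.479 and 0.283 CPM in WT and 6.19, 6.26 and 6.58 in KO, a 17.1-fold difference (log2 4.10 ± 0.25). ST6GAL1, which adds sialic acid to N-glycans, was at 1.17, 1.34 and 1.58 CPM in WT and 14.8, 18.2 and 16 in KO (11.9-fold). The chemokine receptor CXCR4 was at 2.71, 2.73 and 4.69 CPM in WT and 36.4, 40.4 and 41.4 in KO (11.7-fold). Each of these genes stood under 5 CPM in every WT library and above 6 CPM in every KO library. NUPR1, a stress-induced chromatin protein, was 11.7-fold higher, the actin-binding protein NEBL 11.4-fold and the succinate receptor SUCNR1 11.3-fold. The TGFβ-binding matrix protein LTBP1 was 8.40-fold higher, the transcription cofactor MN1 8.20-fold, the antiviral protein TRIM22 8.18-fold and the adenylyl cyclase-associated actin regulator CAP2 7.71-fold. REG4, a secreted lectin of intestinal endocrine and goblet cells, had the highest level of the 15 in KO, 90.4, 93.8 and 86.2 CPM against 12.3, 12.3 and 11.2 in WT (7.56-fold, log2 2.92 ± 0.06). The list was completed by the antiviral genes SAMD9L (7.43-fold) and OAS2 (6.85-fold), the transcription factor CREB5 (7.42-fold) and the digestive-tract calpain CAPN9 (7.06-fold).

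FBN2, which encodes the microfibril protein fibrillin, had the largest decrease, from 13, 10.9 and 13.5 CPM in WT to 0.743, 0.937 and 1.1 in KO (13.5-fold, log2 -3.75 ± 0.19). The neuronal transgelin TAGLN3 was at 7.94, 7.19 and 8.99 CPM in WT and 0.784, 0.511 and 0.548 in KO (12.8-fold lower). The connexin gene GJB6, on chromosome 13, was 9.05-fold lower, and the Ras-induced membrane protein TMEM158 7.78-fold lower. WNT11, a secreted ligand of non-canonical Wnt signalling, was at 38.3, 35.4 and 36.8 CPM in WT and 4.37, 5.2 and 4.59 in KO, also 7.78-fold lower. The protease inhibitor CST6 was 6.28-fold lower, the kinase anchor AKAP12 at the end of 6q 5.98-fold and the skin protein DMKN on chromosome 19 5.60-fold. MCUB, a subunit of the mitochondrial calcium channel whose exons overlap CASP6 on the opposite strand, was 5.21-fold lower. The arginine deiminase PADI1, the collagen cross-linking enzyme LOXL1, which overlaps an antisense gene, and GOLGA7B were 5.15-fold, 5.14-fold and 5.14-fold lower. NRP2, a co-receptor for semaphorins and VEGF, was 5.01-fold lower. In each gene named here the lowest library of one genotype stood above the highest of the other.

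**Figure D1:**
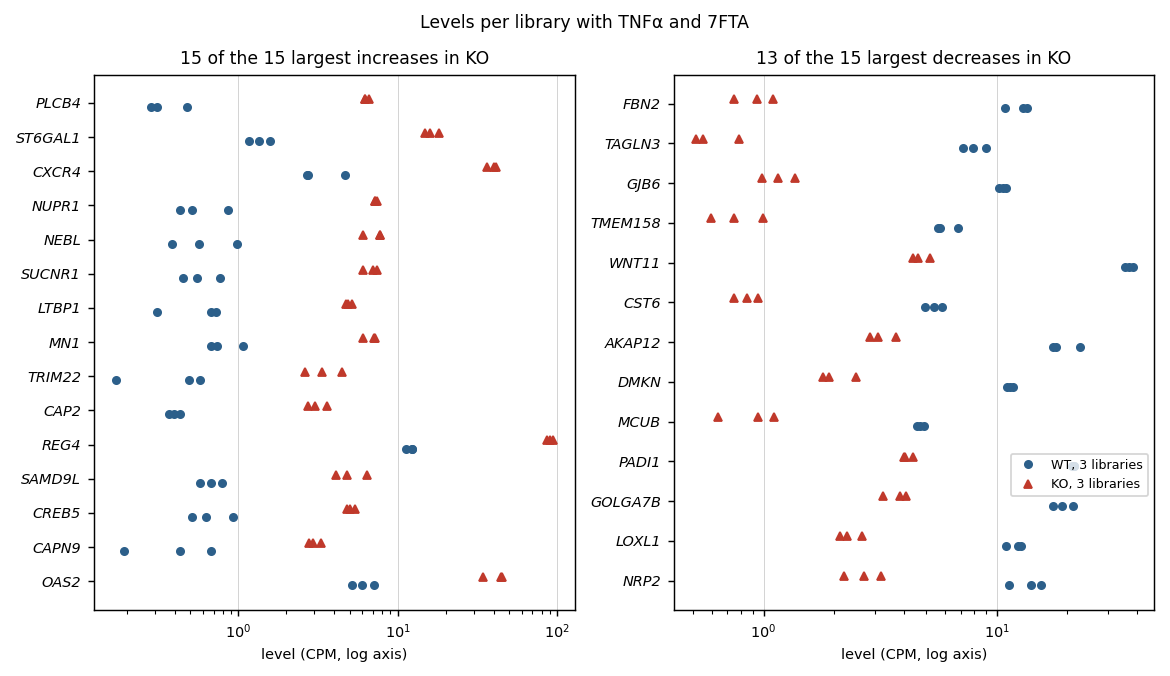
Levels in CPM (log axis) of the 15 genes with the largest increase (left) and 13 of the 15 with the largest decrease (right) in KO with TNFα and 7FTA, chosen by the naming rule. Each circle is a WT library and each triangle a KO library, 3 per gene and genotype; PLCB4 separates by 17.1-fold and FBN2 by 13.5-fold, and no plotted gene's genotypes overlap.

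The receptor family of the targeted gene and the retinoid system came next in the order of the lists. Of 7 tested GPRC5 family genes and retinoid receptors, 2 were higher and 5 lower, GPRC5A included. GPRC5C was 1.65-fold higher in KO, at 15.3, 17.2 and 16.8 CPM in WT and 25, 26.2 and 30.7 in KO, and GPRC5B was lower at under 1 CPM in every library, a call lost without replicate 1 or 3 of KO or replicate 2 or 3 of WT (adjusted p up to 0.11, edgeR). The retinoic acid receptor RARG was 1.45-fold lower, its partner RXRA on chromosome 9 was 1.39-fold lower, and RXRB was 1.18-fold higher. Among 11 retinoic acid targets 8 were lower and 1 higher, with a median of -0.57, and their summed level was 2275 to 2324 CPM in WT and 1239 to 1265 in KO. TGM2, tissue transglutaminase, accounted for most of that difference: 1190, 1060 and 1130 CPM in WT and 308, 288 and 325 in KO (3.68-fold, log2 -1.88 ± 0.04). Its exons overlap RPRD1B on the opposite strand, and the strand setting of the counting is not given in the sources used here. The retinal-oxidising enzyme ALDH1A1, on chromosome 9, was 1.52-fold lower, the retinol importer STRA6 2.10-fold, the retinoic acid-binding CRABP2 1.30-fold and RARRES1 1.49-fold. DHRS3, a retinal reductase, was the member that was higher, 28.2, 33.8 and 31.9 CPM in WT and 47.1, 50.4 and 56.2 in KO. The difference of TGM2 was smaller in size with both agents (-1.88) than with 7FTA alone (-2.20, adjusted p of the difference = 0.000663, edgeR) or DMSO (-2.25, 7.74e-05), as was that of RARRES1 (-0.57 against -1.38 and -1.42).

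Interferon-stimulated genes were the most one-sided list, 46 of 48 higher in KO, none lower, with a median log2 difference of 1.36 against 0.01 over all tested genes. The level summed over the list was 1773 to 1839 CPM in the WT libraries and 3128 to 3455 in the KO libraries. The double-stranded RNA sensor IFIH1 was at 25.6, 24.4 and 25.3 CPM in WT and 49.9, 57.5 and 56.5 in KO (log2 1.12 ± 0.07). IFI44, a GTPase-like antiviral protein, was at 9.04, 9.2 and 7.57 CPM in WT and 36.1, 41.6 and 34.6 in KO (2.12 ± 0.11). Both genes, whose promoters are printed above, had KO libraries well clear of the WT libraries. The ubiquitin ligase HERC6 was at 10.9, 10.6 and 12.1 CPM in WT and 29.6, 35 and 32.6 in KO (2.90-fold), and the exonuclease ISG20 was 2.98-fold higher. OASL and OAS2, of the oligoadenylate synthetase family that activates RNase L, were 2.42-fold and 6.85-fold higher, and OAS1 stood at 31.3, 31 and 25.5 CPM in WT and 91.6, 113 and 109 in KO. The viral-RNA binding protein IFIT3 was at 13.6, 12.3 and 15.3 CPM in WT and 31.3, 34.1 and 33.2 in KO (1.26 ± 0.09). ISG15, a ubiquitin-like modifier, was at 43, 46.2 and 37.6 CPM in WT and 81.9, 90.2 and 87.5 in KO (1.03 ± 0.07). PARP9 was 2.59-fold higher, but its exons overlap those of its partner DTX3L on the opposite strand, itself 0.47 higher.

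Members of 1 family did not all differ by the same amount. Within the IFIT family the log2 difference ran from 0.51 for IFIT5 and 0.74 for IFIT2 to 1.72 for IFIT1, and within the OAS family from 1.27 for OAS3 to 2.78 for OAS2. MX1 and MX2, dynamin-like GTPases that block viruses, were 2.34 and 1.76 higher. The smallest called difference was that of TRIM25, a ubiquitin ligase of the RNA-sensing pathway, at 0.10, and TRIM22, of the same family, was at 3.03. The transmembrane antiviral protein IFITM2 gave -0.12, from 28.4, 29.3 and 24.7 CPM in WT and 22.9, 23.1 and 30.2 in KO, and HERC5 gave 0.79 with libraries that overlapped. Neither passed the test (edgeR adjusted p = 0.17 and 0.069), while IFITM3 was 1.16 higher at 14.7, 18.5 and 17.8 CPM in WT and 34.2, 38.8 and 42.2 in KO. RTP4 and ZBP1, with the widest spread in the plot of interferon-stimulated genes by treatment, rested on under 1.3 CPM in every library. Taking out the 3 members on the low chromosome stretches left 43 higher of 45, with a median of 1.37.

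**Figure D2:**
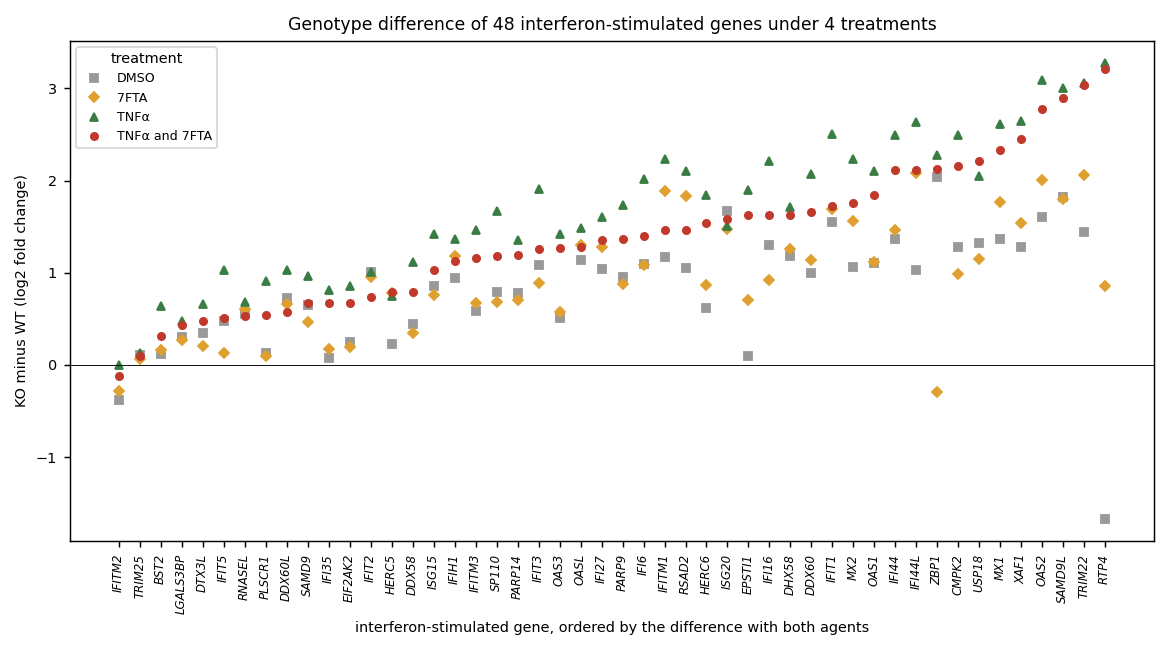
Genotype difference (KO minus WT, log2) of the 48 tested interferon-stimulated genes under each of the 4 treatments, ordered by the difference with both agents. With both agents 46 genes were called higher, and the TNFα-alone value (triangle) lay above the value with both agents (circle) for 45 of the 48 genes. The genes share the same libraries and are not separate observations.

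The genes that carry the interferon signal differed less than its targets. Of 19 tested receptors, kinases and factors 8 were higher and 3 lower, with a median of 0.14. STAT2 was at 10.5, 11.3 and 11.2 CPM in WT and 18.2, 18.5 and 19.3 in KO (1.69-fold), and IRF7, itself an interferon target, was 1.97-fold higher. The kinase JAK1 was 1.46-fold higher. IFNGR2, a chain of the interferon gamma receptor, was 1.36-fold lower, and IRF3 on chromosome 19 was 1.25-fold lower. IFNAR1 and IFNAR2, the chains of the type I receptor, gave -0.07 and -0.14, near the size of that shift, and did not pass the test. Interferon ligand RNA was at the edge of detection, with too few counts to test. The 3 WT and 3 KO libraries together held 1 and 5 counts of IFNB1 and 9 and 14 of IFNL1. For IFNL2 they held 0 and 6, and for IFNL3 1 and 4.

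Antigen presentation by MHC class I was higher in KO as a group: 18 of 20 tested genes were called higher and none lower, with a median of 0.53. Their summed level was 4400 to 4514 CPM in WT and 5627 to 5766 in KO. TAP1, a subunit of the peptide transporter into the endoplasmic reticulum, was at 56.3, 54.9 and 56.1 CPM in WT and 127, 138 and 131 in KO (2.37-fold, log2 1.25 ± 0.05), and its partner TAP2 was 1.58-fold higher. The peptide-trimming enzymes ERAP1 and ERAP2 were at 42, 40.8 and 41.7 and at 117, 116 and 114 CPM in WT, and at 81.5, 80.8 and 81.7 and at 199, 212 and 204 in KO. Replicates of these genes varied by a few percent and the genotypes were far apart. The immunoproteasome subunit PSMB9 was 2.36-fold higher, with exons that overlap PSMB8. Of the heavy chains, HLA-C was 0.75 higher, HLA-B 0.47, and HLA-E 0.41, and the light chain B2M was 0.25 higher, with the reservation that reads of near-identical HLA genes can be split between them. NLRC5, the transactivator of this gene set, rose from 0.861, 1.01 and 0.678 CPM in WT to 4.04, 4.01 and 4.64 in KO (log2 2.29 ± 0.22). The 2 members that did not pass were the proteasome activator PSME1 (0.01) and TAPBPL (0.20). In 16 of these genes with a promoter entry, 8 held the same motif on either strand (50.0%).

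Among 12 tested guanylate-binding proteins and genes of the interferon gamma type, 9 were higher and 1 lower. Of the 12, 1 had no counts in the 6 libraries compared, so it could not be called. GBP4 was at 5.05, 3.74 and 3.84 CPM in WT and 13, 14.2 and 14.1 in KO (3.29-fold), GBP1 was 2.50-fold and GBP3 1.51-fold higher. The apolipoproteins APOL1 and APOL2, the first a pore-forming defence protein, were 2.30-fold and 1.90-fold higher, APOL1 at 41, 41.6 and 47.1 CPM in WT and 101, 95.9 and 102 in KO. CD74, the invariant chain of MHC class II, went the other way, 29.2, 30.1 and 27 CPM in WT and 17.2, 15.2 and 14.5 in KO (1.84-fold lower). HLA-DRA, the class II chain it accompanies, had no counts in the 6 libraries.

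Chemokines were taken as 2 lists by the cells they attract, and the difference between the lists was not tested. Of 9 tested chemokines for T cells and monocytes, 7 were higher and none lower, with a median of 0.79, and their summed level was 66.3 to 72.5 CPM in WT and 102 to 107.6 in KO. CXCL10, a ligand of CXCR3 that both TNFα and interferon induce, was at 10.5, 9.87 and 8.82 CPM in WT and 18.9, 24.1 and 22.7 in KO (2.25-fold, log2 1.17 ± 0.11). CXCL11, for the same receptor, was at 5.72, 6.56 and 5.99 CPM in WT and 11.7, 11 and 12.3 in KO (1.90-fold). CCL22 was 7.71-fold higher at no more than 2.29 CPM, CXCL16 was 1.15-fold higher, and CCL20 and CCL15 were called higher although their libraries overlapped; CCL20 was not called without KO replicate 2 (edgeR adjusted p = 0.126). Of 5 tested neutrophil-attracting chemokines 2 were lower and none higher, with a median of -0.28, and with library totals 1 was lower. CXCL8, interleukin 8, was at 782, 824 and 744 CPM in WT and 581, 660 and 553 in KO (1.31-fold lower, log2 -0.39 ± 0.08), with no overlap. CXCL3 was 1.21-fold lower, a call lost with library totals (edgeR adjusted p = 0.082) and without WT replicate 2 (0.057), while CXCL1 stood at 42.3, 42.3 and 42.8 CPM in WT and 40.6, 46.3 and 39.3 in KO.

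**Figure D3:**
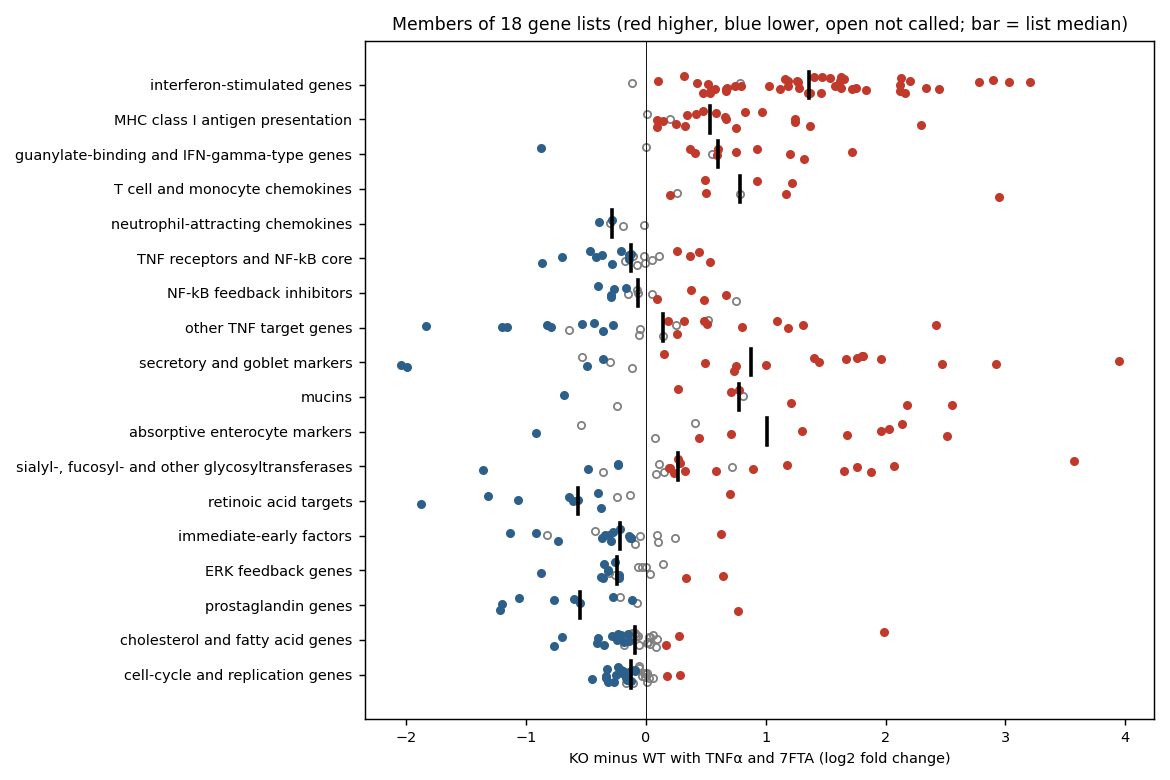
Genotype difference with TNFα and 7FTA (KO minus WT, log2) of each tested member of 18 gene lists; filled red points were called higher, filled blue points lower and open points were not called, and the bar is the list median. The interferon-stimulated genes centre on 1.36 with 46 of 48 called higher, while retinoic acid targets centre on -0.57.

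The TNF receptor and NF-κB machinery was lower more often than higher: 4 of 21 tested genes were higher and 10 lower, with a median of -0.12; with library totals 6 were higher and 7 lower. The precursor of the p50 subunit, NFKB1, was at 230, 216 and 228 CPM in WT and 161, 161 and 164 in KO (1.38-fold lower, log2 -0.47 ± 0.04), and NFKB2 was 1.22-fold lower. RELB (chromosome 19) was 1.34-fold and the kinase IKBKB (chromosome 8) 1.82-fold lower. TAB2, an adaptor of the TAK1 kinase, lay just before the 6q boundary used here and was 1.63-fold lower, at 123, 114 and 116 CPM in WT and 72.4, 69.7 and 74.8 in KO. The ligase subunit RBCK1 was higher, 100, 101 and 100 CPM in WT and 145, 140 and 152 in KO. The inhibitors that NF-κB induces had no common direction, 4 of 14 higher and 5 lower (5 and 4 with library totals). BIRC3, an inhibitor of apoptosis and a TNFα target, was 1.40-fold higher and the deubiquitinase CYLD 1.59-fold higher, whereas NFKBIB (chromosome 19) was 1.32-fold and NFKBIE 1.22-fold lower.

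Other TNFα target genes were also divided, 10 of 25 higher and 9 lower. TNFSF10, the death ligand TRAIL and also an interferon target, was at 2.89, 3.26 and 3.16 CPM in WT and 16.1, 18.2 and 15.9 in KO (5.36-fold higher). The matrix protease MMP7 was at 676, 640 and 693 CPM in WT and 954, 973 and 889 in KO. The cytokines CSF1, LIF and CSF2 were lower, CSF1 at 15.7, 16.3 and 18.9 CPM in WT and 6.81, 7.33 and 8.77 in KO (2.23-fold). The call of CSF2 was lost without KO replicate 1 or 3 or WT replicate 1 (edgeR adjusted p up to 0.142). PLAU, urokinase, was 3.57-fold lower and the early response gene IER3 1.28-fold lower. On the low stretches, SOD2 of the end of 6q was 1.45-fold, ICAM1 of chromosome 19 1.36-fold and LCN2 of chromosome 9 1.21-fold lower.

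PTGS2, the inducible cyclooxygenase, had the smallest p among the TNFα targets that were lower, at 175, 167 and 167 CPM in WT and 72.2, 76.5 and 72.3 in KO (2.30-fold, log2 -1.20 ± 0.05, edgeR adjusted p = 1.7e-25). Other genes of prostaglandin synthesis, export and breakdown were lower with it, 8 of 11 lower and 1 higher, with a median of -0.55, or 5 lower and 1 higher without the low chromosome stretches. The phospholipase PLA2G4A, which frees arachidonic acid, was 1.51-fold lower. HPGD, which inactivates prostaglandins, was at 52.7, 46.1 and 44.3 CPM in WT and 22.5, 21.5 and 17.2 in KO (2.32-fold lower). The exporter ABCC4, on chromosome 13, was 2.08-fold lower. AKR1C3, a reductase that also makes prostaglandin F, was 1.70-fold higher, with reads that near-identical AKR1C genes can share. The prostaglandin receptor PTGER4 had too few counts to test, 1 over the 3 WT libraries and 32 over the 3 KO libraries.

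Cell death regulators included 10 genes higher and 8 lower of 26. The death receptor FAS, whose exons overlap ACTA2 on the opposite strand, was at 21.1, 22.3 and 19.7 CPM in WT and 8.13, 8.74 and 8.87 in KO (2.46-fold lower). The TRAIL receptors TNFRSF10B and TNFRSF10A, both on chromosome 8, were each 1.65-fold lower. MCL1, an anti-apoptotic BCL2 relative, was 1.43-fold and the caspase inhibitor CFLAR 1.24-fold lower, and the inflammatory caspase CASP4 was 1.29-fold higher.

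Immune checkpoint ligands were mixed, 5 of 15 higher and 7 lower, or 5 higher and 3 lower without the low stretches. CEACAM1 (chromosome 19) was at 356, 346 and 331 CPM in WT and 150, 158 and 161 in KO (2.20-fold lower). HHLA2, a B7 family member, was 3.06-fold, TNFRSF14 1.91-fold and the galectin LGALS9 1.71-fold higher. PVR and NECTIN2, ligands of TIGIT encoded on chromosome 19, were 1.39-fold and 1.24-fold lower.

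Of 15 tested genes linked to the aryl hydrocarbon receptor, 6 were higher and 4 lower, with a median of -0.03 that became 0.07 with library totals. CYP1A1, the most responsive target of the receptor, was at 6.03, 7.67 and 6.05 CPM in WT and 5.49, 4.82 and 4.93 in KO, 1.30-fold lower and close to the threshold (edgeR adjusted p = 0.0422). That call was lost with library totals, DESeq2 or limma-voom and without KO replicate 2 or 3 or WT replicate 2 (adjusted p up to 0.27). CYP1B1 was at 8.68, 10.4 and 9.27 CPM in WT and 16.2, 15.9 and 15.5 in KO (1.67-fold higher), and UGT1A6, whose exons are shared across the UGT1A family, was 2.21-fold higher. TIPARP, a repressor of the receptor, was 1.37-fold lower and the amino acid transporter SLC7A5 1.47-fold lower. Enzymes and receptors of tryptophan and tryptamine included 4 genes higher and 1 lower of 11. DDC, which decarboxylates aromatic amino acids to amines such as tryptamine, was at 6.46, 6.95 and 5.54 CPM in WT and 31.7, 33.5 and 31.5 in KO (5.08-fold, log2 2.34 ± 0.10). MAOA, the monoamine oxidase that breaks amines down, was at 15.3, 11.9 and 16.3 CPM in WT and 31, 29.1 and 28.3 in KO (2.05-fold). KYNU, of the kynurenine branch, was 1.98-fold lower.

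Markers of the secretory lineage, the mucus- and peptide-releasing cells of the gut, were higher in KO for 15 of 22 tested genes and lower for 4, with a median of 0.88. Their summed level was 379.8 to 404.9 CPM in WT and 1072 to 1110 in KO. Without the low stretches 12 members were higher and 2 lower, with a median of 1.41 against 1.37 for interferon-stimulated genes. AGR2, a disulfide isomerase that mucin folding needs, was at 178, 197 and 199 CPM in WT and 653, 687 and 667 in KO (3.49-fold, log2 1.80 ± 0.04, edgeR adjusted p = 9.76e-38). The transcription factor FOXA2 was at 3.26, 2.3 and 3.22 CPM in WT and 15.8, 14.9 and 17.4 in KO (5.54-fold), and CREB3L1, a membrane-bound factor of secretory cells, was 3.18-fold higher. No KO library overlapped a WT library for these genes or for REG4. SPINK4 had the highest fold of the list at a low level, 0.123, 0.24 and 0.17 CPM in WT and 3.26, 3.11 and 2.24 in KO. The trefoil peptides did not go together: TFF1 and TFF3 were 1.96 and 1.41 higher, and TFF2 was 2.05 lower at under 3.1 CPM in each library. WFDC2, a secreted protease inhibitor, was at 32.4, 36.6 and 35.4 CPM in WT and 9.04, 8.57 and 8.67 in KO (3.98-fold lower). FOXA3 and KLK1, the other 2 lower genes, lie on chromosome 19, and KLK1 lost its call in 9 of the alternatives, among them 4 that leave out 1 library (edgeR adjusted p up to 0.144).

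Of 9 tested mucins 6 were higher and 1 lower. MUC5AC, a gel-forming mucin of stomach and some colon tumours, was at 19.8, 10.3 and 13.4 CPM in WT and 73.9, 66.7 and 111 in KO (5.86-fold, log2 2.55 ± 0.20), with a wide spread among replicates of both genotypes that still left them apart. The colonic gel mucin MUC2 was at 6.4, 4.55 and 5.71 CPM in WT and 8.67, 7.29 and 11.2 in KO (1.63-fold). The membrane mucin MUC13 was 1.71-fold higher and MUC20 1.61-fold lower. Of 23 glycosyltransferases 14 were higher and 4 lower, with a median of 0.26. Beside ST6GAL1, the mucin-type enzymes ST6GALNAC1 and GALNT5 were 3.39-fold and 3.14-fold higher, and A4GALT, which makes globosides, was 1.40-fold lower.

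Absorptive enterocyte markers were higher for 8 of 12 tested genes and lower for 1, or for 5 and none without the low stretches. The surface peptidase DPP4 was at 17.4, 17.7 and 18.6 CPM in WT and 55.3, 57.6 and 58.8 in KO (3.20-fold, log2 1.68 ± 0.07). The microvillus protein VIL1 was 1.64-fold and the glucose transporter SLC5A1 2.46-fold higher. CEACAM5, on chromosome 19, was 5.71-fold higher. CDX2, the intestinal factor on chromosome 13, was lower at no more than 2.2 CPM.

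Wnt targets and stem cell genes showed no common direction, 6 of 17 higher and 7 lower (6 and 6 with library totals). Beside WNT11, the ligase ZNRF3 was 1.45-fold and the factor TCF7 1.42-fold lower. The ephrin receptor EPHB3 was at 4.43, 3.98 and 4.69 CPM in WT and 16.5, 15.8 and 19.4 in KO (3.95-fold higher), and CD44 was 1.38-fold higher. In the EGF receptor family, EGFR was at 331, 262 and 287 CPM in WT and 181, 176 and 211 in KO (1.55-fold lower), while ERBB3 was 1.45-fold and ERBB2 1.22-fold higher. Immediate-early factors, which growth signals switch on within minutes, were lower for 12 of 21 genes and higher for 1, or for 7 and 3 with library totals and for 6 and none without the low stretches. EGR1 was at 74.8, 67.9 and 76.2 CPM in WT and 39.4, 36.6 and 39.8 in KO (1.89-fold lower). FOSL1 was at 161, 132 and 146 CPM in WT and 91.7, 84.9 and 86.1 in KO (1.67-fold lower), and KLF4 on chromosome 9 was 1.54-fold higher. Of 18 genes in the ERK pathway's feedback 9 were lower and 2 higher (8 and 4 with library totals), PHLDA1 being 1.84-fold lower at 417, 390 and 405 CPM in WT and 226, 215 and 220 in KO.

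Metabolic and stress lists had medians near that of all genes. Cholesterol and fatty acid genes were lower for 12 of 31 and higher for 3, but with library totals for 10 and 10. The squalene synthase FDFT1 (chromosome 8) was 1.62-fold, the desaturase SCD 1.33-fold and the factor SREBF2 1.32-fold lower. Of 28 NRF2 and glutathione genes 14 were higher and 6 lower (18 and 3 with library totals). The reductase AKR1B10 was at 106, 116 and 102 CPM in WT and 394, 459 and 440 in KO (3.99-fold higher), and the exporter ABCC2 was 4.24-fold higher. Of 28 hypoxia and glycolysis genes 13 were higher and 5 lower (19 and 2 with library totals), with PKM, pyruvate kinase, at 3570, 3700 and 3610 CPM in WT and 2410, 2470 and 2480 in KO (1.48-fold lower). ATF4 and its amino acid targets were split 10 to 10 over 26 genes (11 higher and 9 lower with library totals). ATF4 itself was at 240, 260 and 227 CPM in WT and 162, 160 and 168 in KO (1.49-fold lower), whereas its target NUPR1 was among the largest increases. Endoplasmic reticulum chaperones were higher for 12 of 20 and lower for 2 (15 and 1 with library totals), led by CRELD2 at 1.70-fold. Cell-cycle and replication genes were lower for 17 of 32 and higher for 2, or for 8 and 5 with library totals, and no called member differed by as much as 1.4-fold.

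Of 21 junction genes 12 were higher and 5 lower (14 and 2 with library totals). CLDN2, the pore-forming claudin of leaky epithelia, was at 162, 179 and 178 CPM in WT and 78.1, 80.2 and 89.5 in KO (2.10-fold lower), whereas CLDN12, CLDN3 and CLDN4 were 1.50-fold, 1.30-fold and 1.18-fold higher. Of 12 keratins 3 were higher and 5 lower (5 and 5 with library totals). KRT13 was at 85.2, 67.9 and 75.5 CPM in WT and 23.1, 19.9 and 20.3 in KO (3.60-fold lower), and KRT17 was 1.87-fold higher. KRT18 and KRT8, whose exons overlap on opposite strands, were 1.32-fold and 1.24-fold lower. ITGA2, a collagen-binding integrin chain, was at 231, 211 and 220 CPM in WT and 97.8, 96.9 and 111 in KO (2.17-fold lower), and 7 of 12 integrins were lower and 3 higher (4 and 3 with library totals). Metallothioneins and mitochondrially encoded genes had 2 of 8 and 1 of 13 called, all lower.

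The genotype difference with both agents was next set beside the difference in each of the other 3 treatments, which came from other libraries. KO and WT differed for 7115 genes with TNFα alone (50.6%; 25.5% higher and 25.1% lower), 6958 with 7FTA alone (49.5%; 24.6% and 24.9%) and 6763 with DMSO (48.1%; 24.0% and 24.1%). With TNFα alone, 5906 genes were called in both comparisons, 80.88% of the calls with both agents and 83.01% of those with TNFα alone, and 5902 of them in the same direction. The corresponding numbers were 5611 and 5587 with 7FTA alone (76.84% and 80.64%) and 5498 and 5471 with DMSO (75.29% and 81.3%). In all 4 treatments 4638 genes were called, 4628 of them in the same direction. Only 661 genes were called with both agents and in none of the other 3 treatments. Of these, 584 had the same sign with TNFα alone. Their signs with 7FTA alone and DMSO were not counted.

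Testing the change of the genotype difference itself, between both agents and TNFα alone, gave 9 genes (0.064%, edgeR adjusted p under 0.05), 7 with a more negative difference (0.0498%) and 2 with a more positive one (0.0142%). The unadjusted p was under 0.05 for 847 genes. IFIT3 was 1.91 higher in KO with TNFα alone and 1.26 with both agents, a change of -0.65 ± 0.125 (SE), and its mean level in KO was 49.6 CPM with TNFα and 32.9 with both, against 13.1 and 13.7 in WT. PLSCR1, a phospholipid scramblase induced by interferon, was 0.91 and 0.54 higher (-0.37), with means of 177 and 118 CPM in KO and 94.5 and 81 in WT. In both genes the KO mean was lower with both agents than with TNFα alone and above the WT mean in each case. IFIT5 (-0.51), the helicase DDX60L (-0.45) and the virion tether BST2 (-0.33), on chromosome 19, also had smaller positive differences with both agents. TGFBI, a TGFβ-induced matrix protein, went from -0.17 to -0.57 (-0.40). The membrane protein EMP1 went from -0.87 to -0.59 (0.28), and the adhesion receptor ADGRF1 from -0.39 to 0.26 (0.66).

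Of the 9 genes, 5 were on the list of interferon-stimulated genes. For 45 of the 48 list members the signed difference was lower with both agents than with TNFα alone, but only those 5 passed. All members were measured in the same libraries, so these are not 45 separate observations. The share of all tested genes with a lower signed difference was not counted. IFITM2, 1 of the 45, went from -0.005 with TNFα alone to -0.12 with both agents. The list medians were 1.36 with both agents and 1.69 with TNFα alone. CXCL10 had a mean of 54.2 CPM in KO with TNFα alone and 21.9 with both, against 14.9 and 9.72 in WT, a change of -0.69 that did not pass (edgeR adjusted p = 0.117). The count of 9 was fragile: it was 0 without replicate 2 of KO with TNFα, without replicate 1 of KO with both agents or without replicate 1 of WT with TNFα, 1 without replicate 2 of WT with TNFα, and 5 without replicate 3 of WT with TNFα or replicate 2 of WT with both. limma-voom called 0, with 828 genes at an unadjusted p under 0.05.

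**Figure D4:**
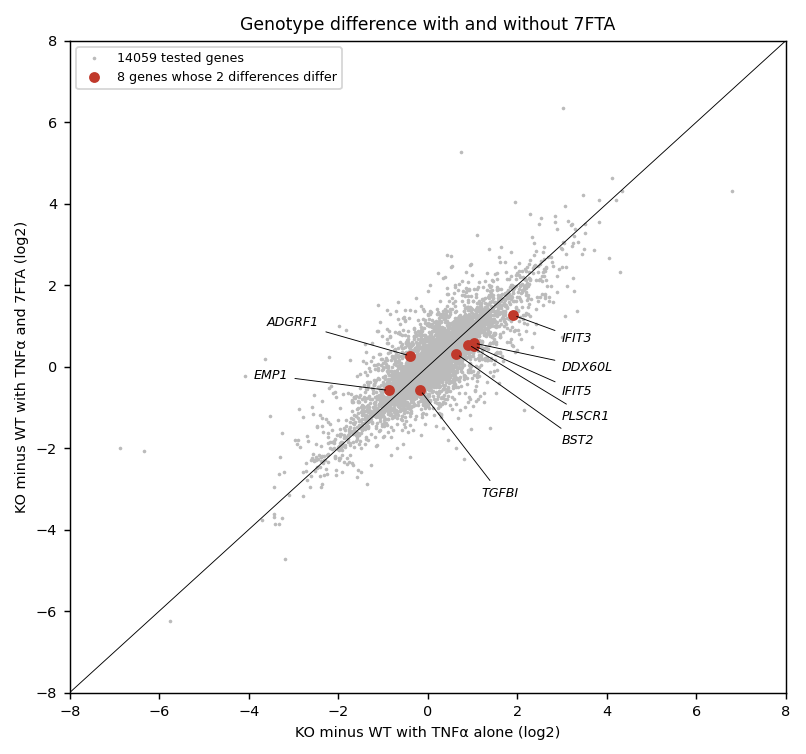
Genotype difference (KO minus WT, log2) with TNFα and 7FTA against the difference with TNFα alone, one point per tested gene (14059), with the line of equality. The 8 marked genes had differences that themselves differed in the edgeR test; IFIT3 lies below the line at 1.91 and 1.26.

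Against 7FTA alone, the genotype difference with both agents differed for 360 genes (2.56%), 222 more positive (1.58%) and 138 more negative (0.982%). Against DMSO it differed for 417 genes (2.97%), 248 more positive (1.76%) and 169 more negative (1.2%), and 237 genes were in both sets. Interferon-stimulated genes supplied 14 of the 222 and 16 of the 248, all with a larger positive difference, and none with a more negative one. The list medians were 0.88 with 7FTA alone, 0.97 with DMSO and 1.36 with both agents. GBP4 was 0.40 higher in KO with 7FTA alone and 1.72 with both agents (1.32), and CMPK2, a mitochondrial nucleotide kinase of the interferon response, 0.99 and 2.16 (1.17). NLRC5 (1.10), CXCL11 (1.08) and the chloride channel protein CLIC5 (1.15) completed the largest positive changes. EPSTI1, on chromosome 13, had a difference of 0.10 with DMSO and 1.62 with both agents (1.53), and the difference of OAS2 was larger by 1.17 than with DMSO.

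In the other direction, ASS1, a chromosome 9 gene whose enzyme makes argininosuccinate from citrulline, was higher in KO in every treatment but less so where TNFα was given. Its mean was 13.2 CPM in WT and 48.7 in KO with 7FTA alone, and 57.4 and 90 with both agents, a change of -1.24. IL4I1, an amino acid oxidase that also acts on tryptophan, stood at 0.388 CPM in WT and 0.367 in KO with DMSO and at 36.1 and 10.5 with both agents (-1.64), and its exons overlap NUP62 and ATF5. ABAT, which degrades GABA (-1.27 against 7FTA and -1.61 against DMSO), and the small GTPase GEM (-0.97 and -1.06) changed in both sets. The mitochondrial import subunit TOMM5 (-1.50) and the membrane-anchored semaphorin SEMA7A (-1.14) did so against 7FTA alone, and the transcription factor ETS1 (-0.94) against DMSO, from a mean of 16 CPM in WT and 26.6 in KO with DMSO to 74.8 and 64.5 with both agents. CXCL8 was lower in KO in every treatment, at 20.8 and 9.15 CPM with 7FTA alone and 783 and 598 with both agents, and its difference shrank from -1.16 to -0.39 (adjusted p of the change = 0.0184, edgeR). The difference of PTGS2 shrank from -1.78 with 7FTA alone to -1.20 (9.37e-06).

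**Figure D5:**
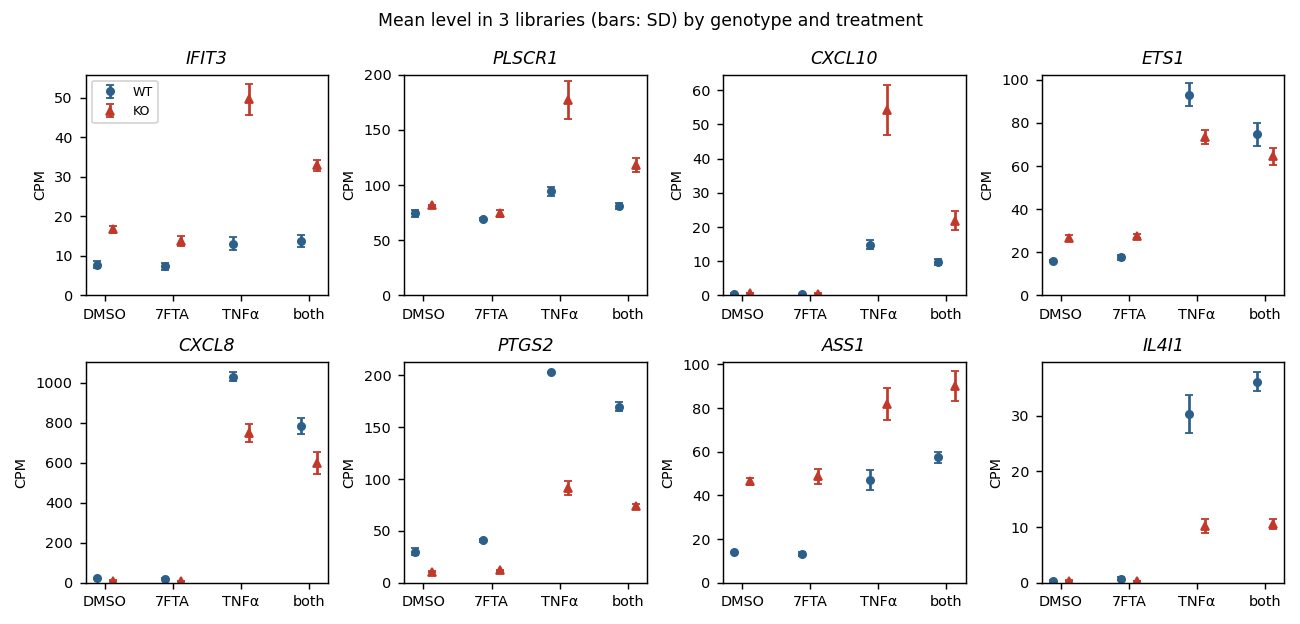
Mean level (CPM, bars SD of 3 libraries, axes from 0) of 8 genes in WT (circles) and KO (triangles) with DMSO, 7FTA, TNFα and both agents. IFIT3, PLSCR1 and CXCL10 have their highest mean in KO with TNFα alone, whereas CXCL8 and PTGS2 are lower in KO under every treatment and IL4I1 is at 36.1 in WT and 10.5 in KO with both agents.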

How the data were processed

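Messenger RNA of GPRC5A KO and WT HT-29 cells was sequenced from polyA libraries as single-end reads, per the labels' protocols. The authors deposited raw counts per gene for each library. Build GRCh38 and the tools DESeq2 1.20.0, featureCounts 1.6.4 and STAR 2.6.1d appear in the submitters' processing notes with no role for each; the annotation release and strand setting are not given in the sources used here. The table had 60623 genes, 30061 with a count. Groups and replicate numbers came from the sample titles, whose running numbers follow the groups.

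R 4.3.3, edgeR 4.0.16, limma 3.58.1 and DESeq2 1.42.0 were used. filterByExpr on the 8 groups left 14059 genes, 13992 of them with a GENCODE 29 position on GRCh38. edgeR's quasi-likelihood test (robust, TMM factors, 1 mean per group over 24 libraries) gave log2 differences, standard errors and Benjamini-Hochberg adjusted p-values over all tested genes. Differences between the genotype contrasts were tested as interaction contrasts. CPM are TMM-scaled. Scripts were tested on simulated data. Within each of the 2 groups compared, every pair of libraries differed beyond sampling noise (chi-square per degree of freedom 2.75 to 6.63); the other 18 libraries were not checked this way. Promoter letters came from RefSeq (GRCh38.p14); 11 tested interferon-stimulated genes had no entry.

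The naming rule took GPRC5A, then the 15 most raised and 15 most lowered called genes without overlap (mean log2 CPM 1 or more), the 5 largest changes of each sign per interaction, and in each list up to 6 members with the smallest p and every call against the majority. Other genes, such as OAS1, MX1, ISG15, TFF1, SPINK4, IFITM2, HERC5 and B2M, and the interaction gene BST2 past the fifth, were chosen after their values were seen. Some genes that the rule took are not reported here. The comparison, its members and the gene lists were chosen with earlier results of these data known. Alternatives were the low-count filter, library totals without TMM, DESeq2, limma-voom, a replicate block, only the 6 libraries, each replicate left out and the low chromosome stretches left out.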

Additional observations from a re-analysis of the deposited data

Results flagged for a closer look

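Each value here is the genotype difference (KO minus WT, log2) with TNFα and 7FTA minus the same difference in another treatment, tested as an interaction in edgeR. Against TNFα alone the change was -0.65 for IFIT3, -0.51 for IFIT5, -0.45 for DDX60L, -0.40 for TGFBI, -0.37 for PLSCR1 and -0.33 for BST2, and it was 0.28 for EMP1 and 0.66 for ADGRF1. Over the 9 genes called, not all of them named, the adjusted p lay between 0.0255 and 0.0446, and 3 of the single libraries left out ended every one of these calls.

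Against 7FTA alone the largest changes were -1.50 for TOMM5, -1.27 for ABAT, -1.24 for ASS1, -1.14 for SEMA7A and -0.97 for GEM, and 1.32 for GBP4, 1.17 for CMPK2, 1.15 for CLIC5, 1.10 for NLRC5 and 1.08 for CXCL11. Against DMSO they were -1.64 for IL4I1, -1.61 for ABAT, -1.09 for ASS1, -1.06 for GEM and -0.94 for ETS1. In the positive direction they were 1.53 for EPSTI1, 1.27 for AC092868.1, 1.26 for the adrenergic receptor ADRA2A, 1.23 for CLIC5 and 1.17 for OAS2. ABAT, ASS1, GEM and CLIC5 stood among the largest changes against both 7FTA and DMSO.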

How the results depend on the processing

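The count of genes that differed between KO and WT with both agents stayed between 6566 and 7545 over the filters, tools, scalings, left-out libraries, replicate block and 6-library fit run, was 5907 without the low chromosome stretches and 1072 with a 2-fold minimum. The 9 genes whose genotype difference changed between TNFα alone and both agents became 24 with no filter, 15 with DESeq2, 0 with limma-voom and 0 to 10 with 1 library left out; the cause was not tested. Against 7FTA alone the count of 360 ran from 224 to 365 with 1 library left out, with 224 without WT 7FTA replicate 3 and 239 without replicate 1, and against DMSO the count of 417 ran from 280 to 437 with 1 library left out. The filters, scaling and other tools gave 316 to 403 and 367 to 455. Without TMM, 68.18% of calls were higher in KO, against 49.77% with it, and PGK1 turned from -0.09 to 0.004. Of 298 called named genes, 269 kept the call in every alternative that tested them.

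Same-numbered libraries of the groups deviated from their group means with correlations of -0.0649 to 0.119. Weak correlations over all genes cannot show whether the numbers pair the samples, and pairing was not tested. With the replicate block 7545 genes were called with both agents, 7370 with TNFα, 7207 with 7FTA and 7033 with DMSO. The changes of the difference numbered 18, 527 and 603 with the block. Each of these counts was larger than without it.

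Genes under about 1 CPM rest on few counts. Without a stated strand setting, overlapping genes on opposite strands cannot be told apart. Near-identical HLA, AKR1C, MT1 and UGT1A genes can share reads. Whether DMSO was present outside the DMSO groups is not stated, and with no clones named, genotype and the history of a cell line cannot be told apart.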
